A study of Mus musculus with 16 samples.

Results

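The 8 genes described here act in bone morphogenetic protein (BMP) signalling, in osteogenic transcription or in the control of tissue mineral, and were followed in the ageing mouse heart: Bmp2, Bmp4, Bmp6, Smad6, Runx2, Enpp1, Alpl and Mgp. They were taken by symbol from count tables of 55487 genes, and each symbol matched 1 row, so 8 of 55487 genes are described. Total RNA of left ventricular mid sections was sequenced in 16 libraries from untreated C57Bl/6J mice, all 24 months old. In 8 the mouse had been pregnant over 3 times (multiparous) and in 8 it was virgin. The names of the multiparous libraries carry a code, P in 4 and MP in 4, whose meaning the labels do not give, and all virgin libraries carry another code, AA, so parity and code cannot be told apart. Reads came from whole tissue, in which fewer cells of a type and less RNA per cell cannot be told apart.

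BMPs are secreted dimers that bind paired serine/threonine kinase receptors, which phosphorylate SMAD1, SMAD5 and SMAD9. These enter the nucleus with SMAD4 and switch on genes such as the Id family, and also Smad6 and Smad7, whose products inhibit the same receptors. BMP2 and BMP4 can drive cells of the vessel wall and valves toward a bone-like state, in which Runx2, the master factor of osteoblasts, is switched on. Mineral deposition is further set by pyrophosphate, which blocks crystal growth: the enzyme encoded by Enpp1 makes it, tissue-nonspecific alkaline phosphatase (Alpl) breaks it down, and matrix Gla protein (Mgp) restrains both mineral and BMP ligands.

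Start regions of Smad6 and Runx2 are shown because Smad6 is the feedback gene of the BMP pathway and Runx2 is the gene of the 8 whose groups stood farthest apart. RefSeq promoter windows (GRCm38.p6, 250 bases before to 50 after the start) existed for 6 of the 8 genes, and the table used here has no entry for Bmp2 and Mgp. The Smad6 stretch lies at chr9:64022056-64022155, minus strand, and ends 4 bases past the start. Its capitals mark the palindrome GTCTAGAC, a Smad-binding element, which crosses the start site.

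Smad6: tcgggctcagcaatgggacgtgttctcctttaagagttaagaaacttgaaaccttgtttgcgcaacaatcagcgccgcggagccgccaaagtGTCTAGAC

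The Runx2 stretch lies at chr17:44814588-44814611, minus strand, just past the RefSeq start. Its capitals mark ACCACA, the core read by Runx factors.

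Runx2: acaaacaACCACAgaACCACAagt

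Of all 32851 windows of 300 bases, 70 (0.213%) held GTCTAGAC, which reads the same on both strands. Smad6 was the only gene of the 6 with a match. ACCACA or its reverse TGTGGT stood in 16.8% of windows, and 3 or more copies in 0.183%. The Runx2 window held 3, of which the stretch shows 2, Enpp1 held 1, and the windows of Alpl, Smad6, Bmp6 and Bmp4 had no match. The element GGCGCC stood once in 1 of the 2 Alpl windows, 66 bases before the start, and in 11.9% of all windows. No other window of the 6 genes held it. A match describes letters in a window and does not show binding.

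Expressed as counts scaled to library size (CPM, with TMM factors) per kilobase of exon, the levels of the 8 genes spanned a wide range. Mgp stood highest with a median of 75.8 CPM per kilobase over the 16 libraries, above 97.9% of the genes tested. Alpl followed with 9.86, Bmp6 with 8.07, Smad6 with 4.29, Bmp4 with 1.86, Enpp1 with 0.947, Bmp2 with 0.570 and Runx2 with 0.221 CPM per kilobase, the last above 12.1% of genes tested. Within every one of the 16 libraries each gene lay above the next in this order, although the ranges of Alpl and Bmp6, of Bmp6 and Smad6, and of Enpp1 and Bmp2 overlapped between libraries. Bmp6 was thus the most abundant of the 3 BMP ligands.

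**Figure D1:**
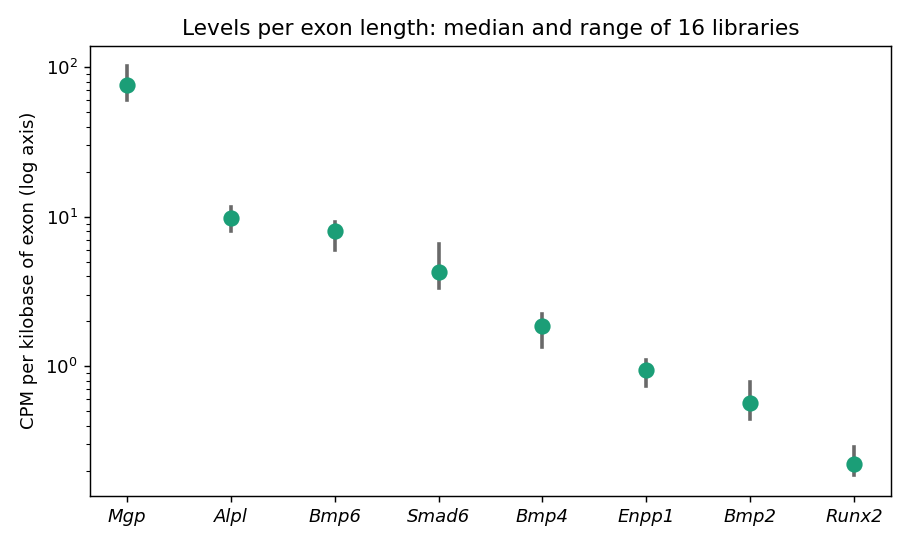
Level of each gene in CPM per kilobase of exon (log axis); the point is the median and the line the range of the 16 libraries. Mgp lies far above the rest, from 60.9 to 101.4, and Runx2 lowest, from 0.186 to 0.286.

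The main comparison asked which of these genes differ between hearts of mice with and without past pregnancies. All 8 passed the filter on low counts and were tested with edgeR among 17813 genes. None of them passed at an adjusted p under 0.05, where 0.0112% of all genes did. At an unadjusted p under 0.05 stood 1 member, Runx2, which was higher in multiparous hearts, against 8.12% of all genes tested and 4.04% tested and higher. Means were higher in multiparous hearts for 6 of 8 genes, against 48.6% of all genes, and the median log2 fold change of the 8 was 0.05, against −0.0030 over all genes tested.

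**Figure D2:**
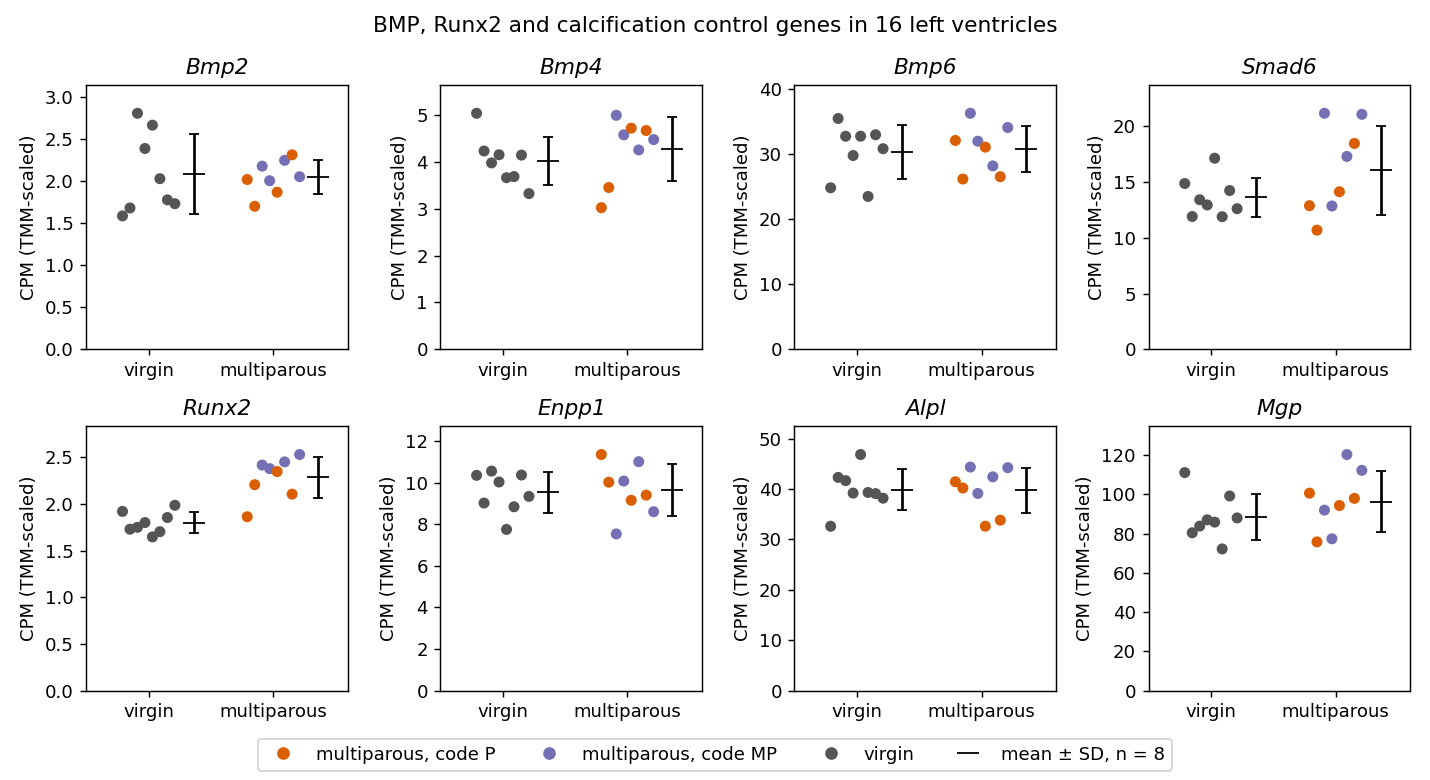
CPM of each gene (vertical axis from 0) in the 8 virgin and 8 multiparous libraries; points are libraries, coloured by code, and bars are mean ± SD. Of the genes shown, Runx2 is the one whose groups nearly separate, with 7 multiparous libraries above all virgin ones. The share of all genes tested with such an arrangement was not computed, and Runx2 did not pass (edgeR adjusted p = 0.158).

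Of the ligands, Bmp4 (ENSMUSG00000021835.15; chromosome 14, 46383520 to 46390669, minus strand) ranged from 3.02 through 4.52 to 4.99 CPM in multiparous and from 3.32 through 4.06 to 5.03 CPM in virgin hearts. Its multiparous values split into 6 libraries at 4.25 CPM or more and 2, multiparous 1 and 2, at 3.02 and 3.45 CPM. The log2 fold change was 0.09 (SE 0.11, 95% interval −0.14 to 0.31, edgeR adjusted p = 0.887). The value was 0.15 without multiparous 1, 0.14 without virgin 1, and 0.05 without multiparous 3 or without virgin 8. None of these fits called Bmp4.

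Bmp2 (ENSMUSG00000027358.6; chromosome 2, 133552159 to 133562885, plus strand) ranged from 1.70 through 2.04 to 2.31 CPM in multiparous and from 1.59 through 1.90 to 2.81 CPM in virgin hearts. The virgin values were the wider, with a coefficient of variation of 22.8% against 9.80%, where counting gives 10.1% and 10.3%. Virgin 3, 4 and 5 lay above every multiparous library, at 2.81, 2.39 and 2.67 CPM, and the others at 1.59 to 2.03 CPM. The log2 fold change was −0.02 (SE 0.13, 95% interval −0.29 to 0.25, edgeR adjusted p = 0.988), and the interval allows a difference of either sign.

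Bmp6 (ENSMUSG00000039004.6; chromosome 13, 38345107 to 38500302, plus strand), a ligand known for control of hepcidin in the liver, ranged from 26.1 through 31.5 to 36.2 CPM and from 23.5 through 31.7 to 35.4 CPM. The groups lay over each other, with a log2 fold change of 0.02 (SE 0.09, 95% interval −0.16 to 0.20, edgeR adjusted p = 0.980). On the opposite strand 224 of its 3900 exonic bases are shared with Txndc5, which averaged 42.2 CPM. The strand setting of the counting is not given in the sources used here, so reads of these bases are uncertain.

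Smad6 (ENSMUSG00000036867.7; chromosome 9, 63953076 to 64022059, minus strand) encodes the inhibitory SMAD that preferentially blocks BMP receptors. It ranged from 10.7 through a median of 15.7 to 21.1 CPM in multiparous hearts and from 11.9 through 13.2 to 17.1 CPM in virgin hearts. Multiparous 3, 6, 7 and 8 lay above every virgin library, while multiparous 2 lay below all of them. The means were 16.04 ± 3.98 and 13.6 ± 1.8 CPM (SD, n = 8 each), a log2 fold change of 0.24 (SE 0.13, 95% interval −0.03 to 0.51, edgeR adjusted p = 0.678). The coefficient of variation was 24.8% in multiparous hearts, the highest of the 8 genes there, where counting gives 3.77%.

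Runx2 (ENSMUSG00000039153.17; chromosome 17, 44495987 to 44814797, minus strand, GRCm38) encodes the transcription factor required for osteoblast formation. The multiparous hearts 1 to 8 measured 1.86, 2.21, 2.42, 2.38, 2.35, 2.45, 2.11 and 2.53 CPM. The virgin hearts 1 to 8 measured 1.92, 1.73, 1.75, 1.80, 1.65, 1.70, 1.86 and 1.99 CPM. In all, 7 multiparous libraries lay above the highest virgin one, and multiparous 1 lay within the virgin range. How many of all genes tested show such an arrangement was not computed. Groups without any overlap were found for 6 genes, and Runx2 was not among them. The means were 2.29 ± 0.22 and 1.80 ± 0.11 CPM (SD, n = 8 each), a log2 fold change of 0.34 (SE 0.08, 95% interval 0.16 to 0.52, unadjusted p = 0.000747, edgeR adjusted p = 0.158). Runx2 ranked 83rd of 17813 genes by p and did not pass.

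The direction of Runx2 held in all 29 alternative fits, each with an unadjusted p under 0.05 and none with an adjusted one (0.0721 to 0.751). Its counts were low, 89 to 137 in the multiparous and 63 to 444 in the virgin libraries. Counting error (Poisson) gives a coefficient of variation of 9.72% and 10.9%, against 9.55% and 6.38% observed. Both observed values lie below counting error, so the spread between libraries was not detectable for this gene at this depth. On the opposite strand, 519 of its 8837 exonic bases are shared with Runx2os1, which averaged 0.0490 CPM.

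The enzymes that set extracellular pyrophosphate had close group means. Enpp1 (ENSMUSG00000037370.13; chromosome 10, 24637914 to 24712159, minus strand), which makes pyrophosphate, ranged from 7.54 through 9.72 to 11.4 CPM in multiparous and from 7.76 through 9.69 to 10.6 CPM in virgin hearts. Multiparous against virgin, Enpp1 gave a log2 fold change of 0.02 (SE 0.08, 95% interval −0.15 to 0.19, edgeR adjusted p = 0.983). Alpl (ENSMUSG00000028766.10; chromosome 4, 137741733 to 137796384, minus strand), which breaks it down, ranged from 32.6 through 40.8 to 44.4 CPM and from 32.6 through 39.3 to 46.8 CPM. For Alpl the log2 fold change was −0.0044 (SE 0.07, 95% interval −0.16 to 0.15, edgeR adjusted p = 0.995). The ratio of Alpl to Enpp1 CPM had a median of 3.87 in multiparous and 4.02 in virgin hearts, with ranges of 3.56 to 5.88 and 3.15 to 6.04.

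Mgp (ENSMUSG00000030218.2; chromosome 6, 136872435 to 136875823, minus strand), the vitamin K-dependent inhibitor of mineral, ranged from 75.8 through 96.2 to 120.4 CPM in multiparous and from 72.2 through 86.5 to 111.2 CPM in virgin hearts. Multiparous 6 and 8 lay above every virgin library, and virgin 1 was the highest of its group. The log2 fold change was 0.12 (SE 0.10, 95% interval −0.08 to 0.32, edgeR adjusted p = 0.802). Without multiparous 6 it was 0.07.

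The multiparous libraries were then compared by code. All 4 MP-coded hearts lay above the 4 P-coded ones for Runx2, at 2.38 to 2.53 against 1.86 to 2.35 CPM, an arrangement found in 2.96% of all genes tested. The nearest libraries of the codes were multiparous 4 (MP, 2.38 CPM from 89 counts) and multiparous 5 (P, 2.35 CPM from 137 counts). Their gap is smaller than counting error (coefficient of variation 9.72%), so the order of these libraries is uncertain. Means were higher in MP for 7 of 8 genes, all but Enpp1, against 50.6% of all genes tested. In the fit of MP against P, 0.121% of 18123 genes passed at an adjusted p under 0.05 and none of the 8 did. At an unadjusted p under 0.05 stood 11% of genes and 1 of the 8, Alpl. Alpl measured 39.1 to 44.4 CPM in MP and 32.6 to 41.4 CPM in P hearts, a log2 fold change of 0.20 (SE 0.08, 95% interval 0.02 to 0.39, edgeR adjusted p = 0.394). Smad6 differed by 0.37 (SE 0.18, edgeR adjusted p = 0.485) and Runx2 by 0.20 (SE 0.13, edgeR adjusted p = 0.613).

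Against the 8 virgin hearts, Runx2 stood 0.44 higher on the log2 scale in the MP-coded hearts (edgeR adjusted p = 0.280) and 0.24 higher in the P-coded ones (edgeR adjusted p = 0.582). For Smad6 the values were 0.41 (edgeR adjusted p = 0.346) and 0.04 (edgeR adjusted p = 0.969). Alpl stood at 0.10 in MP and −0.11 in P. Bmp6 stood at 0.11 and −0.07, Bmp4 at 0.19 and −0.02, Bmp2 at 0.04 and −0.07, Mgp at 0.19 and 0.06, and Enpp1 at −0.03 and 0.06. Both comparisons share the virgin libraries.

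**Figure D3:**
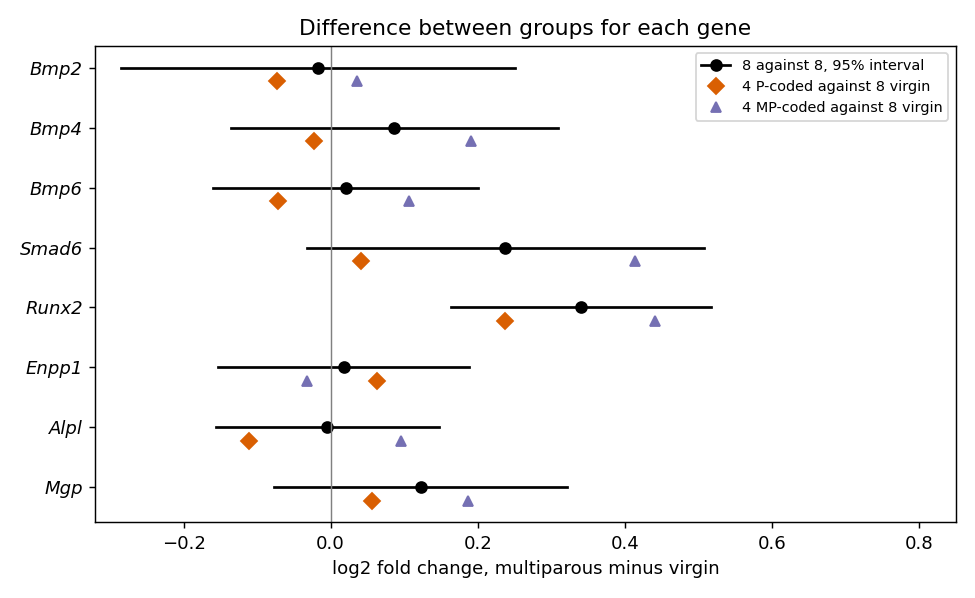
Log2 fold change of multiparous against virgin hearts for each gene (circle, with 95% interval) and for each library code alone (diamond P, triangle MP). Runx2 is the gene whose interval, 0.16 to 0.52, does not reach 0; the MP triangle lies to the right of the P diamond for 7 of 8 genes.

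Relations between the genes over the 16 libraries were computed on log2 CPM as 39 correlations, 28 between the 8 genes and 11 of Smad6 with other BMP targets. Of these, 3 passed by Spearman's rho and 1 by Pearson's r after Benjamini-Hochberg adjustment (permutation tests, two-sided). Smad6 went with Smad7, the other inhibitory SMAD (r = 0.82, permutation p = 0.00011, adjusted p = 0.00429; rho = 0.73, permutation p = 0.00203, adjusted p = 0.0389). Without the 2 libraries farthest from the Smad6 median r was 0.67. Within the multiparous and the virgin hearts r was 0.84 and 0.80.

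Smad6 went likewise with Id2, an inhibitor of differentiation (r = 0.68, permutation p = 0.00366, adjusted p = 0.0663; rho = 0.73, permutation p = 0.00178, adjusted p = 0.0389), with r = 0.64 without the 2 farthest libraries and r = 0.74 and 0.76 within the groups. With Mgp r was 0.64 (permutation p = 0.0085, adjusted p = 0.0663) and rho 0.71 (permutation p = 0.00299, adjusted p = 0.0389). Without the 2 libraries farthest from the Mgp median r was 0.51, and within the groups 0.65 and 0.53. Each library code holds 4 multiparous libraries, too few for a value of its own.

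Of the 11 BMP targets, 7 had a positive r with Smad6 and 4 a negative one, and Smad7 and Id2 were the 2 that passed by rho. The negative ones were Id4 (r = −0.10), Hey2 (−0.32), Msx2 (−0.42) and Bambi (−0.03). For Id1 and Hey1 r was 0.58 and 0.62, and 0.20 and 0.24 without the 2 libraries farthest from the Smad6 median, so these values depend on those libraries. The libraries left out were multiparous 3 and 8, both MP-coded, and the values within the multiparous hearts pool both codes. Within the multiparous hearts r was 0.56 for Id1 and 0.65 for Hey1, and within the virgin hearts 0.39 and 0.27. For Id3 and Atoh8 r was 0.65 and 0.64, and 0.54 and 0.56 without the same 2 libraries, and neither passed.

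Runx2 went with no other member past the threshold. With Smad6 its r was 0.47 (permutation p = 0.0695, adjusted p = 0.254) and rho 0.43 (permutation p = 0.101, adjusted p = 0.282), with r = 0.25 without the 2 libraries farthest from the Runx2 median, and within the groups r was 0.47 and −0.14. Alpl and Enpp1 had r = −0.32 (permutation p = 0.225, adjusted p = 0.438) and rho = −0.32 (permutation p = 0.231, adjusted p = 0.501), and r was 0.10 without the 2 libraries farthest from the Enpp1 median.

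**Figure D4:**
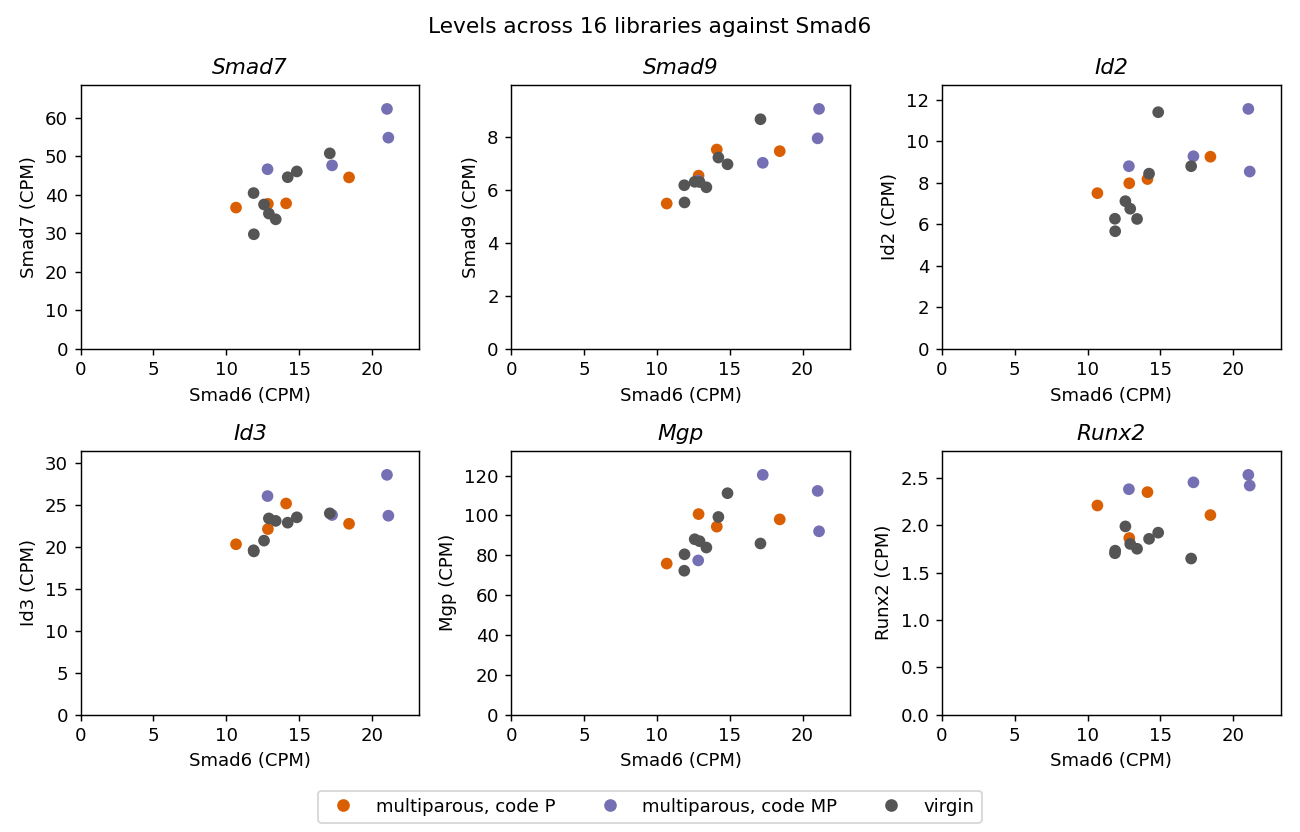
CPM of 6 genes against that of Smad6 in the 16 libraries, coloured by group and code; all axes start at 0. Smad7, Smad9 and Id2 climb with Smad6 in both groups. For Runx2, 7 of 8 multiparous libraries lie above all virgin ones, an arrangement whose share over all genes tested was not computed.

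Among 12428 genes with a mean of at least 1 CPM, those whose log2 CPM followed each member most closely over the 16 libraries were ranked by Spearman's rho, as a description. For Smad6 the first was Smad9, a receptor-activated SMAD of the BMP branch (rho = 0.87), followed by Cebpd (0.85) and Cyp1b1 (0.84). Smad9 measured 5.47 to 9.04 CPM in multiparous and 5.51 to 8.65 CPM in virgin hearts, with rho of 0.93 and 0.76 within the groups. Runx2 was followed by Mageh1 (rho = 0.85), Stum (0.83) and Wdr81 (0.82). In multiparous hearts alone these were 0.71, 0.48 and 0.69, and in virgin hearts alone 0.81, 0.86 and 0.81. The spread of Runx2 within groups did not exceed counting error, so these values do not show shared regulation. Mgp was followed by Panx1, a pannexin channel (rho = 0.87), Numbl (0.87) and H2-M3 (0.86).

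For Enpp1 the first 3 were Fndc1 (rho = 0.85), Cdca4 (0.84) and Myef2 (0.84), and for Alpl they included Ankrd29 (0.84) and Sec31a (0.80). Bmp2 was followed most closely by Gnao1 (rho = 0.89), Kdelr1 (0.82) and Aoc3 (0.81). For Bmp4 they were Ccng2 (rho = 0.82), Agbl3 (0.82) and Rpl10 (0.81), and for Bmp6 they were Rbsn (0.84), Mettl11b (0.79) and Kcnj4 (0.78). No member was among the first 3 of another.

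The rest of the pathway was read from 8 lists holding 100 further genes, of which 75 were tested. None passed at an adjusted p under 0.05. At an unadjusted p under 0.05 stood 7 higher and 3 lower, and the median log2 fold change was 0.02 (44 higher and 31 lower). Over all genes tested, 8.12% stood at an unadjusted p under 0.05, 4.04% did so and were higher, and 48.6% were higher at any p. Ahsg (higher) and Spp1 and Kl (both lower), described below with transcripts of other organs, are among these pathway genes. Among the receptors and co-receptors 8 of 11 were higher (median 0.07), with Bmpr1b at 0.631 against 0.309 CPM, the co-receptor Rgma at 46.1 against 41.9 CPM and Bmpr1a at 126 against 135.1 CPM. For these 3 the edgeR adjusted p was 0.399, 0.612 and 0.652. Of the 4 other ligands tested 2 were higher and 2 lower. Bmp7 measured 1.67 against 1.85 CPM, Bmp10, an atrial ligand, 0.894 against 0.612 CPM, and Gdf6 0.697 against 0.653 CPM.

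Extracellular antagonists were higher in 6 of 9 (median log2 fold change 0.10), with Bmper at 4.82 against 3.91 CPM, Chrd (chordin) at 2.11 against 1.71 CPM and Crim1 at 88.1 against 82.3 CPM. The SMADs and their regulators were higher in 6 of 9 (median 0.01). The signal-carrying Smad1 (18.9 against 18.8 CPM) and Smad5 (66.7 against 67.2 CPM) had close means, while Smad7 measured 46.1 ± 9.1 against 39.8 ± 7.1 CPM (SD, n = 8 each, edgeR adjusted p = 0.704). By code, Smad7 averaged 52.9 CPM (MP) and 39.2 CPM (P), with no overlap (edgeR adjusted p = 0.125 for MP against P). Every MP-coded library lay above every P-coded one in 2.96% of all genes tested. Smad5 and Smad1 were lower in MP than in P. Their log2 fold changes between codes were −0.243 (edgeR adjusted p = 0.099961) and −0.233 (edgeR adjusted p = 0.214). Multiparous against virgin, Smad9 measured 7.16 against 6.64 CPM and the ubiquitin ligase Smurf2 69.5 against 73.5 CPM. Of the BMP target genes 7 of 11 were higher (median 0.12). Hey1 measured 12.9 ± 2.7 against 10.2 ± 1.5 CPM (log2 fold change 0.33, edgeR adjusted p = 0.412), and by code 14.9 CPM (MP) and 10.8 CPM (P), with an edgeR adjusted p = 0.120 between codes. Atoh8 measured 7.24 against 6.52 CPM and Id4 0.558 against 0.862 CPM. Id1 measured 24.4 against 21.9 CPM, Id2 8.88 against 7.58 CPM and Id3 24.0 against 22.1 CPM.

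**Figure D5:**
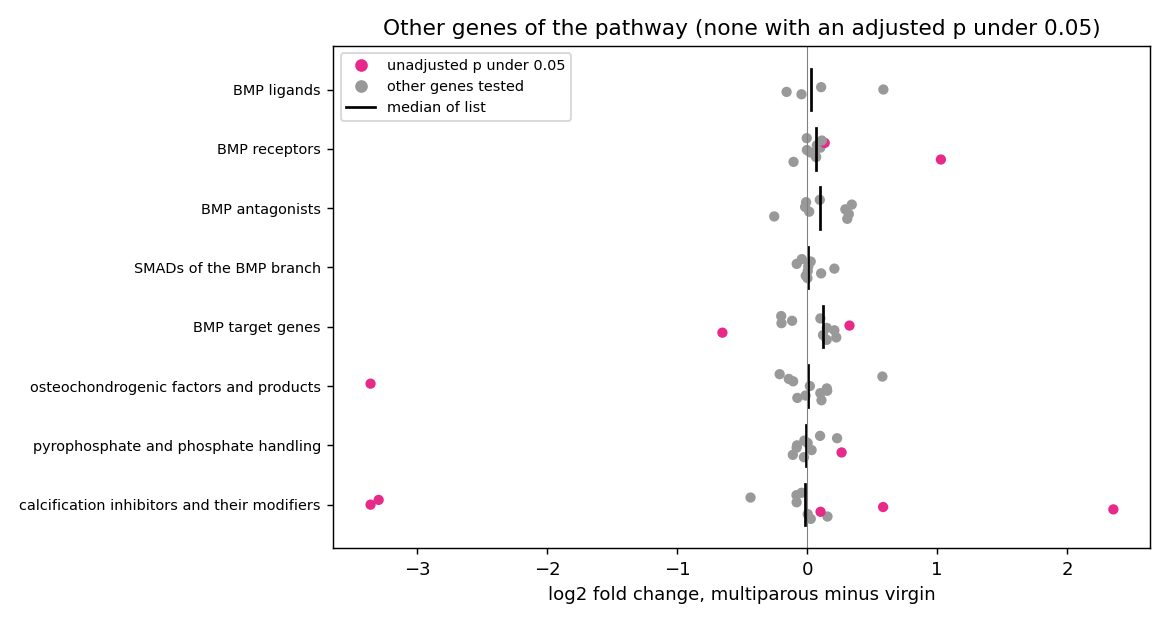
Log2 fold change, multiparous minus virgin, of each tested gene of the 8 further lists (rows); pink points had an unadjusted p under 0.05 and bars are list medians. The medians lie between −0.02 and 0.12, and the points farthest from 0 are Spp1, Kl and Ahsg.

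The bone and cartilage side was sparse. Of 11 markers of cartilage and bone 1, Comp, passed the filter, at 5.21 against 3.49 CPM (edgeR adjusted p = 0.679). Sp7, the osteoblast factor downstream of Runx2, had 21 counts in all over 8 libraries (highest 0.0582 CPM). Bglap (osteocalcin) had 7 counts over 4 libraries, and Ibsp (bone sialoprotein) had 1 count in 1 library. A count of 0 allows up to 3 counts, 0.0131 to 0.0868 CPM by library. Of 12 tested osteochondrogenic genes 6 were higher and 6 lower, among them Spp1 (osteopontin), with Sox9 at 7.44 against 6.67 CPM.

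Genes of pyrophosphate and phosphate handling were higher in 5 of 10 (median log2 fold change −0.0085). Enpp3 measured 5.97 against 4.98 CPM, the nucleoside carrier Slc29a1 56.0 against 52.2 CPM and Smpd3, a sphingomyelinase needed for skeletal mineral, 3.18 against 2.72 CPM. The pyrophosphate exporter Ank measured 248.8 against 252.9 CPM. Mineral inhibitors and their modifiers were higher in 6 of 12 (median −0.02).

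The 3 with the smallest p in that list were high in libraries that also held transcripts of other organs. Spp1 measured 0.154 to 1.00 CPM in multiparous and 0.364 to 19.5 CPM in virgin hearts (edgeR adjusted p = 0.112). Its highest library, virgin 1, also held 11.3 CPM of Umod, a kidney tubule protein. Kl (Klotho) measured 0.0460 to 0.545 against 0.194 to 12.2 CPM (edgeR adjusted p = 0.118). Its highest library, virgin 8, held 220 CPM of Ttr, which liver and choroid plexus make in quantity. In the other virgin libraries Kl ran from 0.194 (virgin 5) to 1.53 CPM (virgin 3), where kidney tubule markers summed to 20.8 and 123.9 CPM. Virgin 1, with a sum of 111 CPM, measured 0.898 CPM of Kl. Ahsg (fetuin A), a liver protein, measured 1.52 to 24.9 against 0.417 to 4.803 CPM (edgeR adjusted p = 0.210), and its highest library, multiparous 2, held 236 CPM of Alb (albumin). DESeq2 on the same 17813 genes called Spp1 (adjusted p = 0.00314), Kl (adjusted p = 0.00439) and Ahsg (adjusted p = 0.0428). The part of other organs in these differences was not tested.

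Gene counts per library ran from 34560606 to 58890976, apart from virgin 8 with 228325238. Markers of heart muscle were abundant in all, summing to 41916 to 55810 CPM over 7 genes. The 14 kidney tubule markers summed to 10.4 to 35.7 CPM in multiparous and 20.8 to 123.9 CPM in virgin libraries, and all 11 tested were lower in multiparous hearts. Liver markers summed to 4.92 to 319.7 CPM in multiparous libraries and to 3.66 to 25.5 CPM in the virgin libraries other than virgin 8. Virgin 8 summed to 228.6 CPM, of which Ttr gave 220 and Alb 5.56 CPM. Fibroblast markers were higher in multiparous hearts in 7 of 8 (1355 to 2059 against 1256 to 1733 CPM) and endocardial ones in 5 of 5 (87.0 to 126.6 against 64.7 to 124.3 CPM). Pericyte markers were higher in 6 of 6 (median log2 fold change 0.08) and macrophage markers in 6 of 6 (median 0.11). Smooth muscle markers were lower in 6 of 6 (352.8 to 431.7 against 376.2 to 496.5 CPM) and heart muscle markers in 7 of 7 (median log2 fold change −0.02). Endothelial markers were higher in 4 of 7. Of all genes tested 48.6% were higher, and markers of a cell type can vary together, so these counts are not independent observations. None of these markers passed, and the part of these cell types in the values of the 8 genes was not tested.

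Alpl is also expressed in kidney. Virgin 1 and virgin 3, which had the highest kidney sums (111 and 124 CPM), measured 32.6 and 41.7 CPM of Alpl. Virgin 5, which had the lowest sum of the virgin libraries (20.8 CPM), measured 46.8 CPM. Virgin 4 and 6, with sums of 72.1 and 88.1 CPM, measured 39.2 and 39.3 CPM. For virgin 2, 7 and 8 the sums were 33.8, 44.6 and 34.7 CPM and Alpl was 42.3, 39.1 and 38.2 CPM. The multiparous libraries, with sums of 10.4 to 35.7 CPM, measured 32.6 to 44.4 CPM. A relation of Alpl to the kidney sum over all 16 libraries was not tested. Without the 4 libraries whose kidney markers summed to over 50 CPM, all virgin, the log2 fold change of Runx2 was 0.33 (edgeR adjusted p = 0.574), that of Smad6 0.20 and that of Alpl −0.06. This alternative was chosen after seeing the data. With the log2 kidney sum as a covariate over all 16 libraries, the values were 0.40 for Runx2 (edgeR adjusted p = 0.751), 0.21 for Smad6, 0.23 for Bmp4, 0.12 for Enpp1 and −0.03 for Alpl, and no member was called. The kidney sum was mostly higher in virgin libraries, so this fit cannot fully tell group and covariate apart.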

How the data were processed

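Libraries were made from total RNA of the left ventricular mid section with a stranded kit that depletes ribosomal RNA, per the labels' protocols. The authors deposited raw counts per gene, 1 table per library. HTSeq 0.11.1, STAR 2.7.11b, GRCm38.p6 and, for reads, Trim Galore 0.6.10, bcl2fastq 2.20 and cutadapt 4.8 are named in the submitters' processing notes. The sources used here give neither annotation release nor strand setting. Reads that the counting did not assign to a gene, for any of the reasons it lists (26.5% to 33.1% per library), were left out. Coordinates and exon lengths are from GENCODE M21 (GRCm38), matched by identifier without version (99.531% of genes); promoter sequences are from RefSeq.

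Testing used edgeR 4.0.16 under R 4.3.3 (TMM, filterByExpr, quasi-likelihood F-test on group, Benjamini-Hochberg over 17813 genes, threshold 0.05); the procedure was checked on simulated data. SE comes from the F statistic. Log2 CPM for correlations used a prior count of 2, and permutation tests 100000 resamples. None of 56 library pairs within groups agreed within sampling noise (chi-square over degrees of freedom at least 8.935). The design text counts 8 hearts per group, and no label names the animal of a library, so p-values speak of library-to-library spread. Floors cover counting error only.

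The members and lists were chosen with earlier results of these data known. All 8 members are named; beside them, the 3 genes of smallest p in each list and the 3 genes most alike to each member, predicted genes passed over; 1 gene under this rule is not reported here. Others named (Smad1, Smad5, Id1, Id2, Id3, Ank, Sp7, Bglap, Ibsp, Sostdc1, Hey2, Msx2, Bambi, Umod, Ttr and Alb) were chosen after their values were seen. Alternatives were DESeq2 1.42.0, limma voom (limma 3.58.1), other factors and filters, a replicate block, each code alone, a kidney covariate, each library left out, and, chosen after seeing the data, leaving out libraries whose kidney (over 50 CPM) or liver (over 200 CPM) markers summed high, and DESeq2 on the genes of the edgeR filter. The virgin library over the liver limit exceeds it through Ttr.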

Additional observations from a re-analysis of the deposited data

How the results depend on the processing

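None of the 8 genes was called in any of 29 alternatives to the comparison of multiparous with virgin hearts, nor in 10 alternatives to that of MP with P codes. Runx2, Mgp and Smad6 kept their direction in all 29. The number of genes called over the whole table changed from 2 to 250 with DESeq2 under its own filtering (36394 genes entered), 130 with DESeq2 on the 17813 genes of the edgeR filter (added after seeing the data), 56 without a filter, 33 with the replicate block, 97 with the P-coded hearts alone, and 0 with no factors, with the MP-coded hearts alone, with the kidney covariate, and without the kidney-rich libraries or those with a liver-list sum over 200 CPM. It ranged from 0 to 55 when 1 library was left out, highest without virgin replicate 7. Other pathway genes called numbered 4 with DESeq2 under its own filtering (Ahsg higher, Spp1, Sostdc1 and Kl lower), 3 with DESeq2 on the genes of the edgeR filter, where Sostdc1 was not tested, 1 with the P-coded hearts alone (Ahsg) and 0 to 1 with 1 library left out (Spp1 without virgin replicate 7). The causes were not tested.

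Directions turned for genes whose differences were close to 0. With the MP-coded hearts alone the log2 fold change of Enpp1 was −0.032, of Alpl 0.096 and of Bmp2 0.036. With the P-coded hearts alone that of Bmp4 was −0.022 and of Bmp6 −0.071. Without factors Alpl stood at 0.032 and Bmp2 at 0.019, with limma voom Bmp2 at 0.072, and with the kidney covariate Bmp2 at 0.020 and Bmp6 at −0.037. Without the kidney-rich libraries Bmp2 stood at 0.069 and Bmp6 at −0.099, and without those of high liver-list sum Alpl at 0.020. Leaving out 1 library gave −0.020 to 0.061 for Enpp1, −0.041 to 0.033 for Alpl, −0.063 to 0.053 for Bmp2, −0.024 to 0.056 for Bmp6, 0.048 to 0.147 for Bmp4 and 0.071 to 0.176 for Mgp. With the replicate number as a block Bmp2 stood at 0.0012 and Runx2 at 0.34 (edgeR adjusted p = 0.340). Same-numbered libraries correlated from −0.11 to 0.29 in their deviations. Of the 8 multiparous libraries 1 correlated best with its own number, so no pairing by number was seen. A weaker pairing was not tested. The depth limits Runx2 and Bmp2 most, with median counts of 78 and 96 in virgin libraries.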
